A study of Mus musculus with 4 samples.

Results

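The neuregulins and the ErbB receptors were taken as the 8 genes named *Erbb2*, *Erbb3*, *Erbb4*, *Egfr*, *Nrg1*, *Nrg2*, *Nrg3* and *Nrg4* among the 56883 genes of the expression table. They are 4 receptors and 4 ligands, chosen by symbol alone. RNA sequencing had been carried out on tdTomato-positive cells sorted from the basal telencephalon of mouse embryos at E14.5, in mid-gestation, with 2 libraries per genotype. Control embryos carried the genotype *Sst-Cre*/*tdTomato*, and *Dnmt1* KO embryos carried *Sst-Cre*/*tdTomato*/*Dnmt1 loxP2*, so Cre and the reporter were shared by both groups. Cre was driven by *Sst*, the somatostatin gene, whose product marks a class of inhibitory interneurons born in the medial ganglionic eminence (MGE). The deletion of *Dnmt1*, the maintenance DNA methyltransferase, was therefore directed to young neurons that had switched on *Sst*. RNA came from 50000 cells pooled per genotype, and both libraries of a genotype were prepared apart, each from the cells of several embryos. P-values accordingly measure the spread between such pools and not between animals.

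ErbB receptors are tyrosine kinases that pair on the cell surface when an epidermal growth factor (EGF)-like ligand binds. Neuregulins bind ErbB3 and ErbB4, whereas EGFR binds EGF and its closest relatives; ErbB2 binds no known ligand and serves as a partner for the other receptors, and ErbB3 has a severely impaired kinase. In the embryonic forebrain ErbB4 is carried by interneurons that migrate tangentially from the MGE to the cortex, and neuregulin 1 along the route and in the cortex acts on them as a guidance cue.

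Values are given as normalized counts, which are reads per gene divided by a size factor of the library. A normalized count of 1 corresponded to about 1 read in each library, since 1 read was worth 0.895 to 1.09 normalized counts. Total reads over genes were 8376711 and 7276779 in control and 7744944 and 6970247 in *Dnmt1* KO. A value of 0 in a library allows up to 3 reads, between 2.68 and 3.28 normalized counts; this limit and the intervals of ratios below cover counting error only. Of 14323 genes with a mean of at least 10 normalized counts, 17.3% differed between *Dnmt1* KO and control (limma, Benjamini-Hochberg adjusted p below 0.05), with 8.3% higher and 8.99% lower in *Dnmt1* KO. Of the 8 genes, 6 reached this level and 3 of them passed the test, *Erbb4* higher and *Erbb2* and *Nrg1* lower. For 57.4% of all genes tested, both libraries of a genotype lay on 1 side of both libraries of the other; this held for 5 of the 6 tested members, all but *Egfr*.

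**Figure D1:**
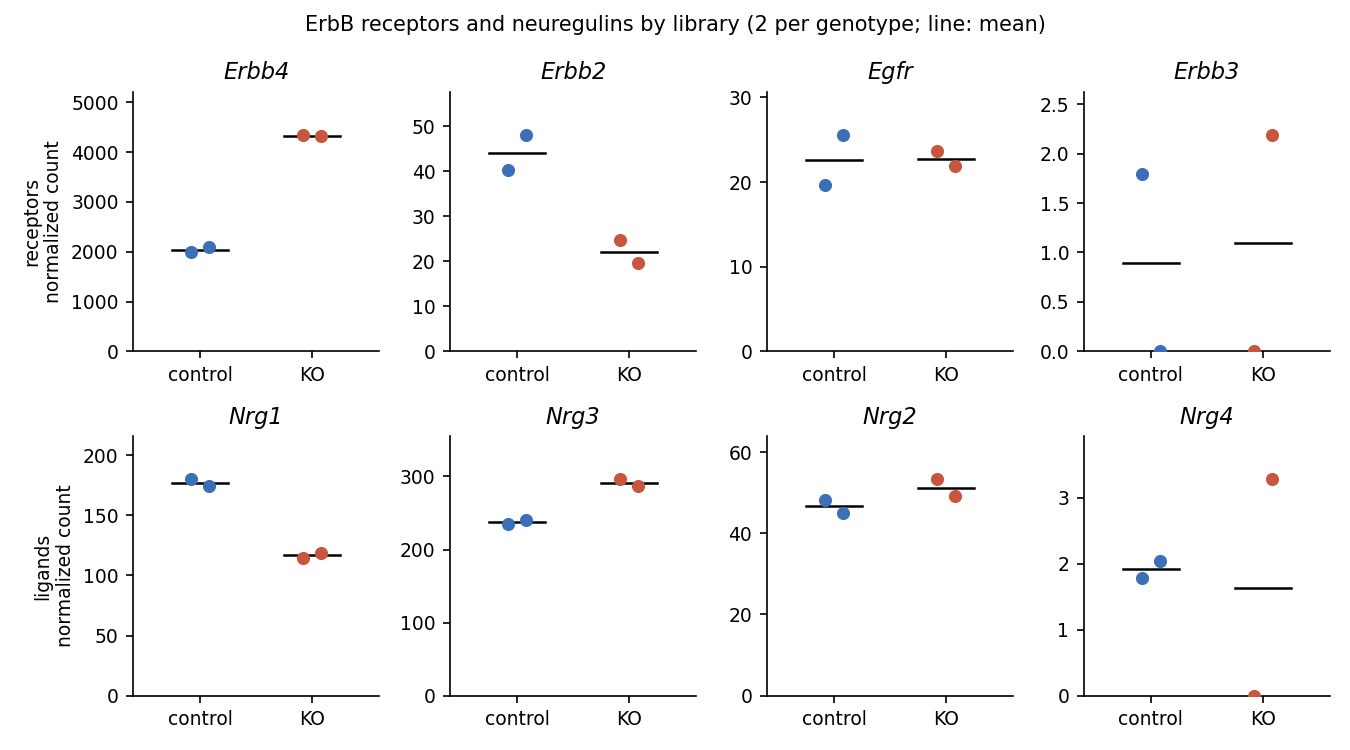
Normalized count in each library for the 4 receptors (upper row) and the 4 neuregulins (lower row), each on a linear axis of its own from 0; each point is 1 library (blue, control; red, *Dnmt1* KO) and each line a group mean. *Erbb4* stands highest in every library, at 1990 and 2095 in control and 4338 and 4322 in *Dnmt1* KO, *Egfr* is the tested gene whose groups overlap, and *Erbb3* and *Nrg4* do not exceed 3.28.

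The labelled cell identity was examined first, because the same markers bear on every value below. *Sst* itself was at 5580 and 5963 normalized counts in control and at 8303 and 7825 in *Dnmt1* KO (log2 fold change 0.48, SE 0.047, limma adjusted p = 4.87e-06). Of 13 interneuron markers 12 rose (median log2 fold change 0.53), and their summed level was 22125 to 22355 in control and 33064 to 33417 in *Dnmt1* KO. Markers of other cells were detected as well and mostly stood lower in *Dnmt1* KO. Those of radial glia and cycling cells fell in 8 of 10 cases while *Sox2* rose (summed level 14283 to 14321 in control, 8930 to 9103 in *Dnmt1* KO). Pallial excitatory markers fell in 7 of 9 cases (2777 to 2844 against 1448 to 1573), endothelial and mural markers in 8 of 8 (649 to 711 against 281 to 297), and blood markers in all 6 tested of 7 (2228 to 2407 against 560 to 567). Meningeal markers fell in 3 of 4 tested of 6 (229 to 230.0 against 101 to 119), cholinergic and pallidal markers in 2 of 4 tested of 6 (1011 to 1063 against 611 to 721), and microglial markers in 1 of 2 tested of 6 (68.9 to 93.9 against 20.7 to 33.9). Of the oligodendrocyte precursor markers, 1 of 5 tested of 7 fell (213 to 285 against 130.0 to 173), and of the neural crest and Schwann cell markers, 0 of 1 tested of 6 by limma, edgeR, DESeq2 or voom (63.3 to 68.0 against 41.4 to 53.5; 0 at an unadjusted p below 0.05). No marker was at 0 in all 4 libraries. In sorted pools of this kind, fewer cells of a type and less RNA per cell cannot be told apart, and the part of these markers in the changes below was not tested. *Dnmt1* was counted at 2238 and 2341 in control and 2164 and 2210 in *Dnmt1* KO (log2 fold change -0.066, SE 0.054, limma adjusted p = 0.461). The count covers the whole gene and does not separate the floxed exons. For other material, the paper reports a lower DNMT1 protein signal in tdTomato-positive cells of knockout embryos at E14.5. It also reports lower *Dnmt1* RNA in knockout cells sorted from the cortex.

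The receptor that carried the signal was *Erbb4*. For this gene (ENSMUSG00000062209; GRCm39 chromosome 1, 68071345 to 69147619, minus strand), which spans 1076.28 kb and whose transcript with the longest coding sequence has 11782 bases in 28 exons, normalized counts were 1990 and 2095 in control and 4338 and 4322 in *Dnmt1* KO. Both *Dnmt1* KO libraries lay above both control libraries by far more than replicates differed. Mean levels were 2043 ± 74.0 and 4330 ± 11.1 (SD, n = 2 each), a rise of 2.12-fold with a 95% interval of 1.97 to 2.29 (log2 fold change 1.08, SE 0.051, limma adjusted p = 5.10e-09). This change was larger in size than that of 95% of the genes tested, where the median size was 0.21 on the log2 scale. Among the 13 interneuron markers, only *Maf*, a transcription factor of MGE-derived interneurons, had a larger log2 fold change, at 1.12. *Erbb4* rose more than *Sst*, by 0.60 on the log2 scale (SE 0.069, 95% interval 0.45 to 0.75). The log2 fold change of *Erbb4* was 0.85 once the trend with transcript length and GC content had been removed. It was 0.75 with the trend with genomic span removed too, and the comparison with *Sst* was not repeated in these fits. Per kilobase of transcript, the level of *Erbb4* relative to that of *Sst* was 0.109 and 0.108 in control and 0.160 and 0.169 in *Dnmt1* KO.

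Since *Dnmt1* maintains methylation of cytosines that precede guanine (CG), promoter sequence is shown for the 2 receptors that passed the test in limma. The 250 bases upstream of the start in the RefSeq table are given, with each CG in capitals. The sequences are from the RefSeq promoter table in build GRCm38.p6, an older build than that of the expression table, and are given 5′ to 3′ on the gene's strand. *Erbb4* lies on the minus strand at chr1:69108060-69108309 and *Erbb2* on the plus strand at chr11:98412234-98412483.
Erbb4: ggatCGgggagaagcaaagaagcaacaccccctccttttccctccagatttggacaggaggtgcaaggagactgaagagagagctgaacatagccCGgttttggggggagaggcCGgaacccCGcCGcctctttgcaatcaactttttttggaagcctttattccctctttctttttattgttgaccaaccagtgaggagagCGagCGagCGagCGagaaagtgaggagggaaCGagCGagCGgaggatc
Erbb2: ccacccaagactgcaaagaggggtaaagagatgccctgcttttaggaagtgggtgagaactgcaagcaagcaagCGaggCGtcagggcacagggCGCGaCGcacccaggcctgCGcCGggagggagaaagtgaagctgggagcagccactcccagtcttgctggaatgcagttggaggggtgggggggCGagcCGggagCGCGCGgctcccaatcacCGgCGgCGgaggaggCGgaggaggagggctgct
The *Erbb4* window held 12 CG and the *Erbb2* window 16, and 33.5% and 25.4% of the 32851 promoters in the table held at least as many over the same length. The median promoter held 6, and 92.1% held at least 1. The *Nrg3* window was richer, with 27, a number reached by 8.56% of promoters. Of the 8 genes, 5 were matched in that table, and *Erbb3*, *Nrg1* and *Nrg2* were not. Methylation was not measured in these libraries, so the sequences describe the starts and not their state. The paper sequenced methylation in separate pools of such sorted cells and reports sites of loss and of gain in *Erbb4*. Those sites were not compared with the window shown.

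*Erbb2* (ENSMUSG00000062312; chromosome 11, 98303203 to 98328542, plus strand), the receptor without a ligand of its own, was far scarcer. Its normalized counts were 40.3 and 48.0 in control and 24.7 and 19.7 in *Dnmt1* KO, on 45, 47, 25 and 18 reads. The *Dnmt1* KO libraries lay below the control libraries, and the means were 44.1 ± 5.45 and 22.2 ± 3.53 (SD, n = 2 each). *Erbb2* fell by 0.97 on the log2 scale (SE 0.31, 95% interval -1.63 to -0.30, limma adjusted p = 0.0460). This call sat at the threshold: leaving out control replicate 1 (adjusted p = 0.110), control replicate 2 (0.245) or *Dnmt1* KO replicate 2 (0.145) ended it in limma, as did edgeR (0.0530) and DESeq2 (0.261). The ratio of reads had a counting interval of 0.345 to 0.737, which lies below equality. The opposite moves of *Erbb2* and *Erbb4* differed from each other (*Erbb2* minus *Erbb4* -2.05 on the log2 scale, SE 0.32, 95% interval -2.73 to -1.37).

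*Egfr* (ENSMUSG00000020122; chromosome 11, 16702198 to 16868158, plus strand), the receptor of EGF, was at 19.7 and 25.5 in control and 23.7 and 21.9 in *Dnmt1* KO. Both *Dnmt1* KO values fell between the control values. The log2 fold change was 0.020 (SE 0.36, limma adjusted p = 0.981), with a sign that turned with equal library totals, with trends removed and without single libraries, and its 95% interval of -0.75 to 0.79 leaves room for a change of either direction at 20 to 25 reads per library. *Erbb3* (ENSMUSG00000018166; chromosome 10, 128403392 to 128425811, minus strand), the other receptor that binds neuregulins directly, had 2, 0, 0 and 2 reads, at or below 2.19 normalized counts in every library. Any difference in *Erbb3* was not detectable at this depth.

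Per kilobase, though not by normalized count, where *Nrg3* stood higher, *Nrg1* was the most abundant ligand in every library. For the row that carries its reads (ENSMUSG00000062991; chromosome 8, 32303906 to 33374825, minus strand), normalized counts were 180 and 175 in control and 114 and 119 in *Dnmt1* KO. The groups did not overlap, and means were 177 ± 3.74 and 117 ± 3.31 (SD, n = 2 each). *Nrg1* fell by 0.60 on the log2 scale (SE 0.15, 95% interval -0.91 to -0.29, limma adjusted p = 0.0103). Without control replicate 1 or control replicate 2 the fall was of like size but did not pass (limma adjusted p = 0.0706 and 0.0557), nor did it in DESeq2 (adjusted p = 0.0922). The count sums over 40 annotated transcripts, which encode membrane-bound and secreted forms, and these were not separated. A further row of the same symbol (ENSMUSG00000118541), which shares 186 exonic bases with the main row, was at 0 in all 4 libraries.

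*Nrg3* (ENSMUSG00000041014; chromosome 14, 38087063 to 39196036, minus strand), a neural ligand of ErbB4, was at 234 and 240 in control and 296 and 287 in *Dnmt1* KO. Both *Dnmt1* KO values lay above both control values, with means of 237 ± 3.86 and 292 ± 6.05 (SD, n = 2 each). The log2 fold change was 0.30 (SE 0.11, 95% interval 0.060 to 0.53) and did not pass after adjustment over all genes (limma adjusted p = 0.0810; the unadjusted limma value was 0.0175). It was 0.13 once the trend of fold change with transcript length, GC content and genomic span had been removed (limma adjusted p = 0.453).

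*Nrg2* (ENSMUSG00000060275; chromosome 18, 36149819 to 36330456, minus strand) was lower still, at 48.3 and 44.9 in control and 53.3 and 49.2 in *Dnmt1* KO. The log2 fold change was 0.13 (SE 0.25, 95% interval -0.39 to 0.66, limma adjusted p = 0.770). Its count is uncertain, because 1071 exonic bases lie opposite exons of *Psd2* and the strand setting of the counting is not given in the sources used here. *Nrg4* (ENSMUSG00000032311; chromosome 9, 55121336 to 55234128, minus strand) had 2, 2, 0 and 3 reads, too few to test, and 1595 of its exonic bases lie opposite *Fbxo22*. The same limit touches 9 bases of *Erbb2* that lie opposite *Mien1*.

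**Figure D2:**
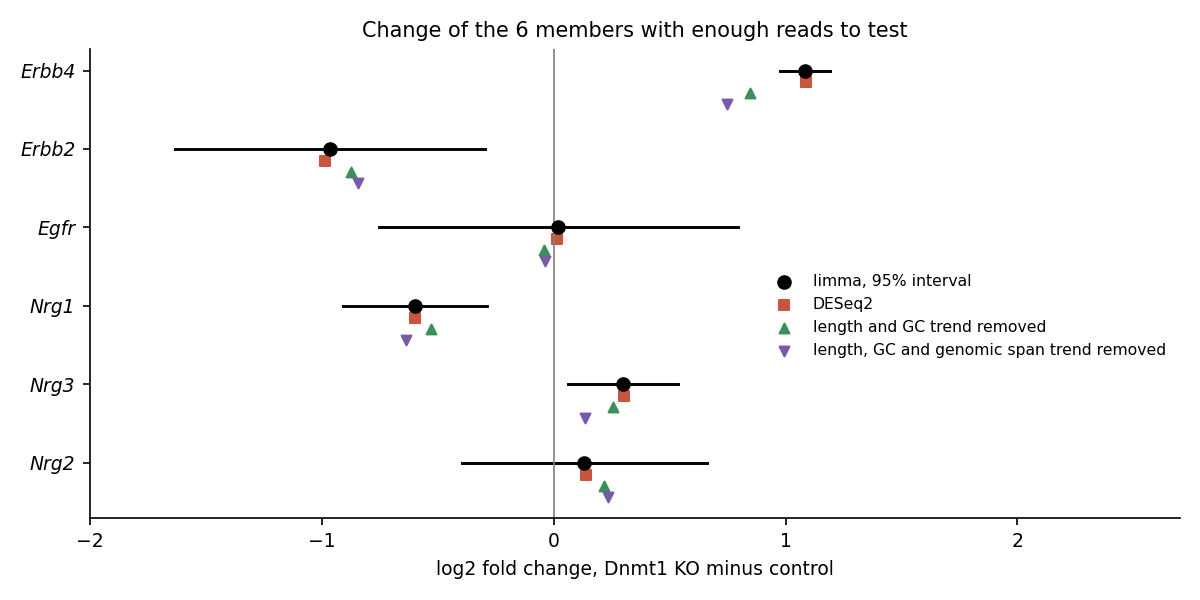
Log2 fold change of *Dnmt1* KO over control with its 95% interval (limma) for the 6 tested members (black), with the estimates of DESeq2 (red squares) and of limma freed of the length and GC trend (green triangles) or of that and the genomic span trend (purple triangles) below each. The intervals of *Erbb4* (0.98 to 1.19), *Erbb2* (-1.63 to -0.30), *Nrg1* (-0.91 to -0.29) and *Nrg3* (0.060 to 0.53) exclude 0, while those of *Egfr* and *Nrg2* include it. The intervals are not adjusted for the number of genes, and *Nrg3* did not pass after adjustment (limma adjusted p = 0.0810).

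The members were next compared with each other. Among the 15 pairs of tested members, the 95% interval of the difference in log2 fold change, unadjusted for the number of pairs and taken with the errors of the 2 genes as independent, excluded 0 in 9. *Erbb4* rose relative to both main ligands, since *Erbb4* minus *Nrg1* was 1.68 (SE 0.15, 1.35 to 2.01) and *Erbb4* minus *Nrg3* was 0.79 (SE 0.12, 0.53 to 1.05). The ligands also moved apart from each other, with *Nrg1* minus *Nrg3* at -0.89 (SE 0.18, -1.29 to -0.50) and *Nrg1* minus *Nrg2* at -0.73 (-1.34 to -0.12). No difference was resolved between *Erbb2* and *Nrg1* (-0.37, interval -1.11 to 0.37) or between *Nrg2* and *Nrg3* (-0.16, interval -0.74 to 0.41). For *Egfr* minus *Erbb2*, the interval of -0.038 to 2.01 just included 0.

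Levels of different genes were compared per kilobase of transcript, taking for each gene the transcript with the longest coding sequence. In control the order of mean levels was *Erbb4* (173 normalized counts per kb), *Nrg1* (55.3), *Nrg3* (26.8), *Nrg2* (11.8), *Erbb2* (8.64), *Egfr* (2.21), *Nrg4* (0.908) and *Erbb3* (0.148). In *Dnmt1* KO the order was the same, at 368, 36.5, 33.0, 12.9, 4.34, 2.23, 0.777 and 0.181. Each gene was separated from its neighbour in both libraries of both groups, except *Nrg4* and *Erbb3*, which overlapped in *Dnmt1* KO. At no more than 3 reads per library, the order of *Nrg4* and *Erbb3* was not resolved in control either. *Nrg1* and *Nrg3* drew close in *Dnmt1* KO on this scale, with *Nrg1* at 35.7 and 37.2 per kb and *Nrg3* at 33.4 and 32.5. Their order and this approach depend on the transcripts taken, of 3202 bases for *Nrg1* and 8848 for *Nrg3*. Without division by length *Nrg3* lay above *Nrg1* in every library. In control the normalized counts were 234 and 240 against 180 and 175, and in *Dnmt1* KO 296 and 287 against 114 and 119.

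Expressed as a share of the summed level per kb of the 4 receptors, *Erbb4* made up 94.4% and 93.7% in control and 98.1% and 98.3% in *Dnmt1* KO. *Erbb2* made up 4.41% and 4.95% in control and 1.29% and 1.03% in *Dnmt1* KO. The receptor transcripts were thus almost wholly *Erbb4* in all 4 libraries, and the difference between groups in its share was 4.16 percentage points (exact permutation test, two-sided p = 0.333, the smallest that 2 against 2 libraries allow). Of the summed neuregulins, *Nrg1* made up 58.7% and 58.0% in control and 43.3% and 44.5% in *Dnmt1* KO, and *Nrg3* made up 27.7% and 28.9% in control and 40.5% and 38.8% in *Dnmt1* KO. The *Nrg3* share stood 11.4 points higher in *Dnmt1* KO (exact permutation test, two-sided p = 0.333, again the smallest possible). The level per kb of *Nrg3* relative to *Nrg1* was 0.472 and 0.497 in control and 0.936 and 0.873 in *Dnmt1* KO, and that of *Erbb4* relative to *Nrg1* was 3.01 and 3.26 in control and 10.3 and 9.86 in *Dnmt1* KO.

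**Figure D3:**
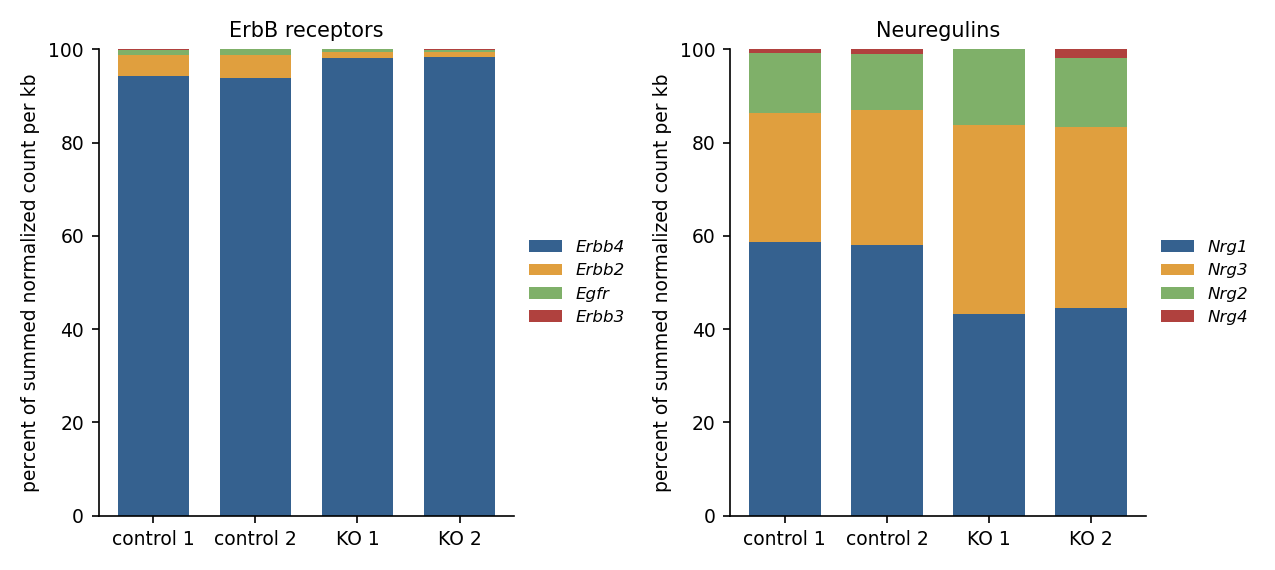
Share of the summed level per kb of transcript (that with the longest coding sequence), in percent, of each of the 4 receptors and each of the 4 neuregulins in each of the 4 libraries. *Erbb4* takes 93.7% to 98.3% of the receptor sum in all 4 libraries, and the *Nrg3* share is 27.7% and 28.9% in control against 40.5% and 38.8% in *Dnmt1* KO.

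The count of *Erbb4* was then set beside transcripts annotated inside its introns. On the same strand 8 such genes share no exonic base with *Erbb4*, and 7 were above 0. Their summed normalized count was 86.8 and 79.6 in control and 371 and 357 in *Dnmt1* KO, 4.38-fold higher by the means (83.2 ± 5.07 and 364 ± 9.61, SD, n = 2 each). Relative to the count of *Erbb4* itself, the sum came to 4.36% and 3.8% in control and 8.55% and 8.27% in *Dnmt1* KO. All 6 that could be tested rose in limma, against 8.3% of all genes tested, 21.6% of 603 transcripts nested in the same way across the genome and 40.3% of the 201 nested in other hosts that rose. Of these 6, *Gm15670*, *Gm19335* and *Gm37100* had control means of 8.88, 8.31 and 5.68, below the filter of 10. They entered the test only through their *Dnmt1* KO values, so the count of 6 is a description only. The 603 include these 6.

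The most abundant was *Gm37769*, an unconfirmed gene model 395 kb from the *Erbb4* start, at 29.5 and 32.7 in control and 146 and 161 in *Dnmt1* KO. Its log2 fold change of 2.27 (SE 0.21, limma adjusted p = 3.36e-06) exceeded that of *Erbb4* by 1.18 (SE 0.22). *Gm16076*, a long noncoding RNA that starts 1.72 kb from the *Erbb4* start, was at 11.6 and 14.3 in control and 76.0 and 52.4 in *Dnmt1* KO (log2 fold change 2.21, limma adjusted p = 0.000302). The other 4 had log2 fold changes of 1.67 to 2.07, and of these *Gm19335* (limma adjusted p = 0.0165) and *Gm37100* (0.0195) did not pass without control replicate 2 (0.116 and 0.0638), nor *Gm37100* without *Dnmt1* KO replicate 1 (0.130). *Gm19335* did not pass in DESeq2 (adjusted p = 0.0842) or with the length and GC trend removed, with or without the span trend, and DESeq2 gave no adjusted p for *Gm37100*. A larger fold change in nested transcripts than in their host was not particular to *Erbb4*. Over all tested genes, 527 of 603 such nested transcripts (87.4%), in 376 hosts, had a larger log2 fold change than their host, with a median difference of 0.55. Among hosts that did not pass the test the share was 85.4% (328 of 384, median difference 0.54), and among those that rose, *Erbb4* left out, it was 90.5% (182 of 201, median difference 0.55). Whether these reads arise from separate transcripts or from unspliced RNA of the host was not tested.

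**Figure D4:**
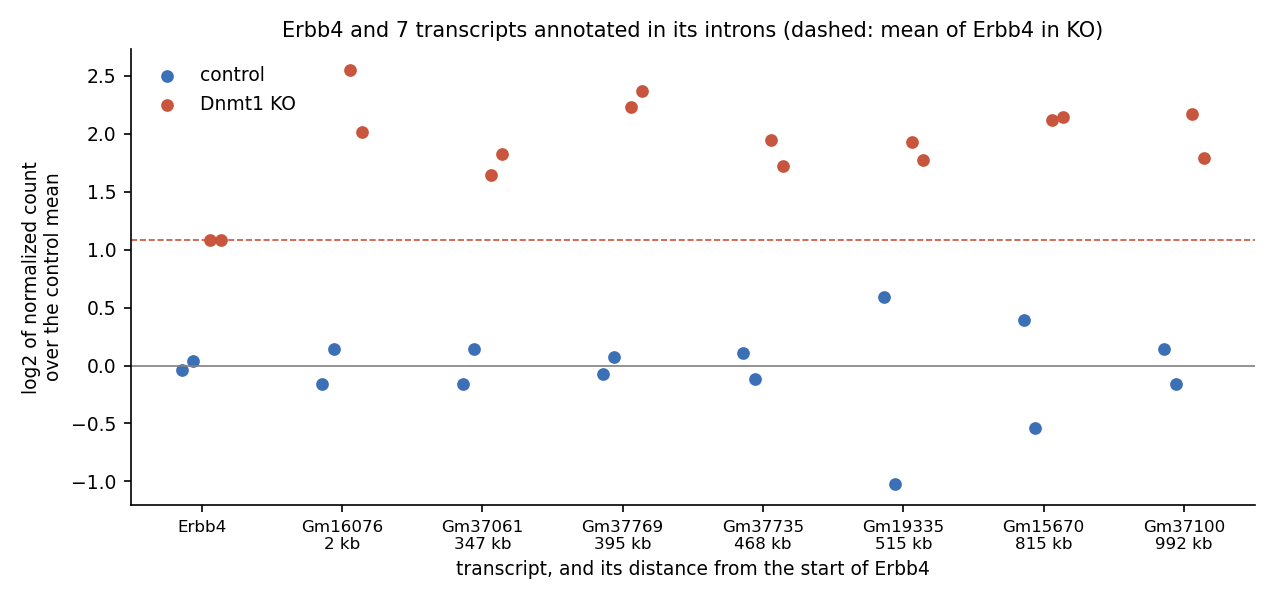
Log2 of the normalized count in each library over the control mean, for *Erbb4* and the 7 genes annotated in its introns on the same strand with reads, ordered by distance in kb from the *Erbb4* start; blue points are control, red points *Dnmt1* KO, and the dashed line is the *Dnmt1* KO mean of *Erbb4*. All 7 lie above the dashed line in both *Dnmt1* KO libraries, *Gm37769* for example with counts of 146 and 161 against 29.5 and 32.7.

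The other components of ErbB signalling were described with 7 lists of 87 genes, of which 80 were tested. In all, 3 rose and 2 fell, which is 6.25% against the background of 17.3%, and the median log2 fold change was 0.054 against -0.0033 for all genes. Of the 7 other EGF-family ligands, 3 were tested and 0 passed in limma, with 0 at an unadjusted p below 0.05. In edgeR, DESeq2 and voom 0 passed, and the list median was -0.076. Transforming growth factor alpha (*Tgfa*) was at 58.2 and 81.7 in control and 61.2 and 59.0 in *Dnmt1* KO. *Areg*, *Ereg* and *Epgn* were at 0 in all 4 libraries, and *Btc* had a value above 0 only in *Dnmt1* KO replicate 2, at 1.09.

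Of the proteases that release or process neuregulins and ErbB4, 12 of 13 were tested, with a median log2 fold change of 0.11. *Bace1*, the beta-secretase known to cleave neuregulin 1, rose from 362 and 353 in control to 534 and 529 in *Dnmt1* KO (log2 fold change 0.57, SE 0.090, limma adjusted p = 0.000434). It was the only member of its list to pass. *Adam17*, a sheddase of neuregulin 1 and ErbB4, was at 168 and 176 in control and 140 and 115 in *Dnmt1* KO (log2 fold change -0.44, limma adjusted p = 0.0643), and the presenilins and their partners in gamma-secretase did not pass.

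Downstream kinases and adaptors showed small differences. Among 16 adaptors and proximal kinases 1 rose, the Src-family kinase *Fyn* (1445 and 1437 against 1676 and 1641; log2 fold change 0.20, limma adjusted p = 0.0266), and the list median was 0.033. The *Fyn* call was lost when any 1 library was left out (limma adjusted p = 0.0707 to 0.137), in DESeq2 (0.0912), with equal library totals and under quantile normalization. Among 10 genes of the Ras and MAP kinase cascade 1 rose, *Braf* (400 and 363 against 471 and 495; log2 fold change 0.34, limma adjusted p = 0.0216), with a list median of 0.0032. It did not pass without control replicate 2 (0.135) or *Dnmt1* KO replicate 2 (0.0996), in DESeq2 (0.124), or in the 3 fits with the length and GC trend removed (log2 fold change 0.25 with that trend removed). Of 12 genes of the PI3 kinase and Akt cascade, 0 passed in limma, edgeR, DESeq2 or voom, with 3 at an unadjusted limma p below 0.05 and a list median of 0.12.

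Of 17 regulators of ErbB turnover and signalling, with a median log2 fold change of 0.054, 1 fell. This was *Spry1*, an inhibitor of receptor tyrosine kinase signalling, at 117 and 88.8 in control and 56.2 and 40.4 in *Dnmt1* KO (log2 fold change -1.08, SE 0.23, limma adjusted p = 0.00487; 0.0873 without control replicate 1). Of 12 genes for partners of ErbB4 or of its intracellular domain, 10 were tested, with a median of 0.044, and 1 fell. This was *Yap1*, a transcriptional co-activator that binds the ErbB4 intracellular domain, at 137 and 176 in control and 66.1 and 60.1 in *Dnmt1* KO (log2 fold change -1.29, SE 0.19, limma adjusted p = 0.000220). *Dlg4*, whose product PSD-95 binds ErbB4 at synapses, was at 2127 and 2013 in control and 2272 and 2143 in *Dnmt1* KO (log2 fold change 0.092, limma adjusted p = 0.307).

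**Figure D5:**
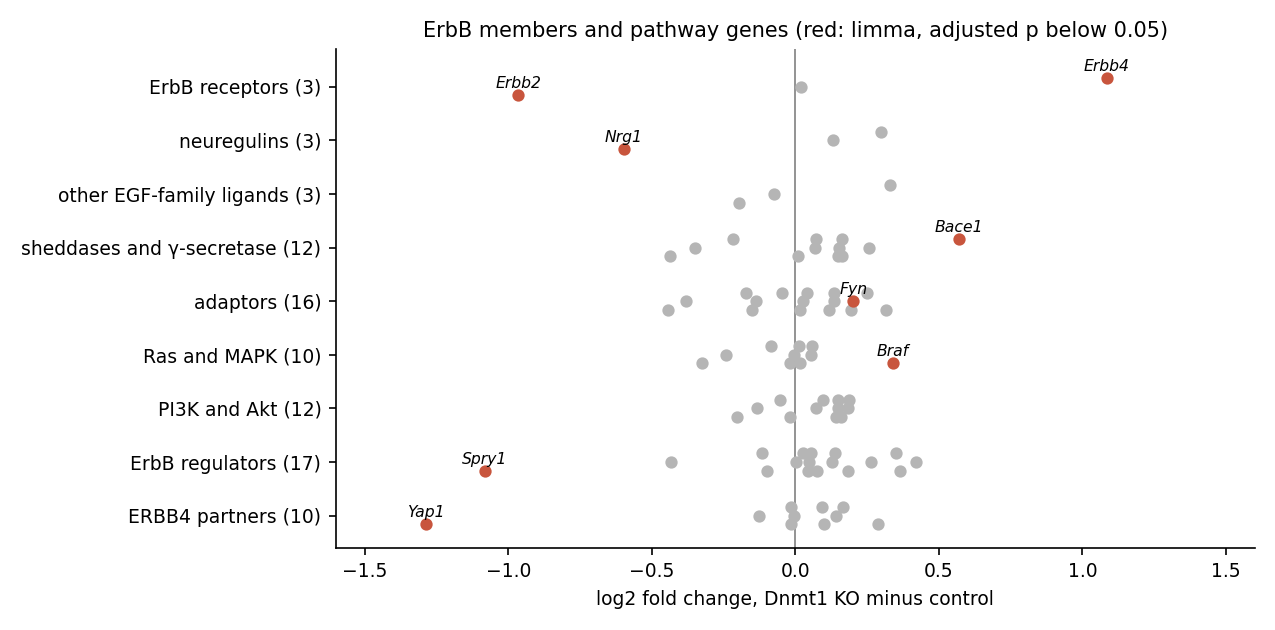
Log2 fold change of *Dnmt1* KO over control for each tested receptor and neuregulin and each tested gene of the 7 ErbB pathway lists, with the number tested in brackets; each point is 1 gene, red and named where it passed the test (limma) and grey otherwise, and the vertical offset within a row only separates points. In the pathway lists the largest changes are those of *Yap1* (-1.29), *Spry1* (-1.08) and *Bace1* (0.57).

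Lastly, the genes whose values over the 4 libraries most resembled each changed member were found among 8418 genes with a mean of at least 100 normalized counts, by Euclidean distance between log2 values centred on the gene's mean. The points share libraries and scaling, so likeness is a description only. For *Erbb4* the 3 nearest were *Maf* (distance 0.0664), *Thbs1*, which encodes the secreted glycoprotein thrombospondin 1 (0.107), and *Nxph2*, a neurexophilin (0.115). For *Nrg1* they were the imprinted gene *Peg10* (0.0134), *Hells*, a chromatin remodeller (0.0239), and *Ppp2r2b*, a phosphatase subunit (0.0383). For *Erbb2* they were the DNA repair gene *Brca1* (0.0805), *Ccdc8* (0.106) and the histone gene *H2bc7* (0.107), whose reads may be shared with near-identical histone copies.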

How the data were processed

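RNA of sorted tdTomato-positive cells had been sequenced from a stranded, rRNA-depleted total RNA kit. The authors ran the nf-core/rnaseq workflow on GRCm39 (Trim Galore for trimming, STAR for alignment, Salmon for quantification) and scaled the gene counts in DESeq2. The deposited values are a signal, gene counts divided by a DESeq2 size factor. Dividing each library by its smallest step returned whole reads for 89965 of 89965 values above 0 (100%, tolerance 0.0001 reads), and 28067 of 56883 genes were above 0. Salmon estimates the count of each gene, so the reads named here may be rounded estimates rather than observed reads.

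Libraries were grouped by genotype from the labels (2 control, 2 *Dnmt1* KO). Genes with a mean of at least 10 normalized counts, 14323 in all, entered limma 3.58.1 after log2 transformation with a pseudocount of 1 (R 4.3.3; variance trend, Benjamini-Hochberg adjustment over all of them, threshold 0.05). Fold changes on this scale understate changes of low genes. On simulated counts for these 14323 genes, limma called 74% of those given a log2 change of 1 and 40% of those given 0.5. The simulation was a single draw in which far fewer genes were changed than passed in the data, which makes the adjusted threshold stricter. Its shares pool genes of all count levels, so they do not give the power for any member. Lengths, overlaps and positions are from GENCODE (GRCm39, which matched 14285 of the genes tested); promoters are from RefSeq.

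Alternatives were the pseudocount, filter, scaling, edgeR 4.0.16, DESeq2 1.42.0 and voom on the recovered reads, trend removal, a replicate block and leaving out each library. The 8 members and all lists were chosen with earlier results of these data known. Named were the members, *Dnmt1*, *Sst*, up to 4 genes that passed in each pathway list, and the 3 genes most like each called member; *Adam17*, *Tgfa*, *Areg*, *Ereg*, *Epgn*, *Btc*, *Dlg4*, *Sox2* and the nested genes were named after their values were seen. A gene of the PI3 kinase list is not reported here.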

Additional observations from a re-analysis of the deposited data

How the results depend on the processing

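*Erbb4* remained higher in all 20 alternatives, with log2 fold changes of 0.75 (length, GC and genomic span trend removed, chosen after seeing the data) to 1.12, and lost the call in 1, without a variance trend (1.08, limma adjusted p = 0.0592). In that fit no gene passed: 0 were higher and 0 lower, against 1189 and 1287, with 3339 genes at an unadjusted p below 0.05. *Nrg1* was lower in all 20 and did not pass in 4, namely without a variance trend (-0.60, 0.0746), in DESeq2 (-0.60, 0.0922) and in 2 of the fits that left out 1 library (range -0.63 to -0.57). *Erbb2* was lower in all 19 that gave a value and lost the call in 13. Its log2 fold change was -0.97 with a filter of at least 1 (adjusted p = 0.0565), with no filter (0.0927) and without a variance trend (0.0841), -0.88 under quantile normalization, -0.98 in edgeR, -0.99 in DESeq2, -0.96 in voom (0.0551), -0.87 with the length and GC trend removed, with or without the replicate block, and -0.84 with the span trend removed too; leaving out 1 library gave -1.12 to -0.81. *Egfr* never passed and changed sign in 6 alternatives: -0.011 with equal library totals, -0.041 with the length and GC trend removed, with or without the replicate block, and -0.037 with the span trend removed, and leaving out 1 library gave -0.16 to 0.20. *Nrg2* and *Nrg3* passed in none of theirs. A filter of at least 50 left out *Egfr*, *Erbb2* and *Nrg2*.

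Over all genes, DESeq2 called 634 higher and 683 lower, and leaving out 1 library gave 787 to 959 higher and 738 to 1246 lower. Higher calls were 48.0% of all calls, 58.4% once length, GC and span trends were removed, when 1535 were higher and 1094 lower; equal library totals gave 997 and 1475. In the pathway lists, higher calls (3) became 0 without a variance trend, 1 in DESeq2, 5 with the replicate block, 8 with the length and GC trend removed (9 with the replicate block as well, 8 with span), and 1 to 4 when 1 library was left out; lower calls (2) became 5 with equal library totals and 0 without a variance trend. The *Erbb4* share of the receptors differed by 2.15 points without division by length and by 1.22 with the median transcript length (4.16 with the transcript of the longest coding sequence), and the *Nrg3* share of the ligands by 5.62 with the median length, against 11.4; the longest transcript gave 4.37 and 10.7.

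Replicate numbers are shared between genotypes but did not pair the libraries (correlation of same-numbered deviations -0.085 over genes). The replicate block gave 1402 higher and 1555 lower calls and changed no call among the 8 genes. Depth limits *Egfr*, *Erbb2* and *Nrg2*, at 18 to 54 reads per library, and leaves *Erbb3* and *Nrg4* untested.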
